A study of Mus musculus with 6 samples.

Results

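The transcripts described here encode 10 members of the BCL2 family, the proteins that decide at the mitochondrial outer membrane whether a cell lives or dies by apoptosis. They were chosen by name and fall into 3 classes by role: the anti-apoptotic *Bcl2*, *Bcl2l1* (BCL-XL) and *Mcl1*, the BH3-only *Bcl2l11* (BIM), *Bbc3* (PUMA), *Pmaip1* (NOXA), *Bid* and *Bad*, and the effectors *Bax* and *Bak1*. All 10 members were found among the 54446 genes of the table and all 10 reached the mean of 10 normalized counts required for testing, as did 12322 genes in all. RNA was sequenced from naive splenic B cells that were purified by immunomagnetic negative selection and kept in culture for 7 days with LPS at 20 µg/ml and IL-4 at 20 ng/ml, which activate them. The 6 libraries came from mice of the mixed C57BL/6J X CBA strain, 3 labelled *Tent5c* (TENT5C) KO and 3 WT littermates bred from heterozygous parents, aged 12 to 15 weeks. Both groups received the same activators, and libraries of an untreated culture were not analysed here. TENT5C is a cytoplasmic poly(A) polymerase of B lineage cells, and the comparison asks which transcripts differ in level when the gene is knocked out. Libraries with the same number come from littermates and share a batch label, and such a KO and WT library are called a pair.

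Anti-apoptotic members hold the effectors in check, BH3-only members engage the anti-apoptotic ones in response to stress or loss of survival signals, and BAX and BAK1, once free, permeabilize the outer membrane and release cytochrome c. In B cells, BCL2 and BCL-XL sustain resting and activated cells, BIM removes cells deprived of survival signals or with self-reactive receptors, and MCL1 is needed by activated B cells and by plasma cells. MCL1 and NOXA proteins are short-lived, and many members are regulated after transcription, so a transcript level is not a protein level.

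The fragments on genes ranged from 5393558 to 6793520 per library, and a member had between 81 and 5309 fragments in a library. The *Tent5c* transcript did not separate the labels. It stood at 1255, 767 and 1584 normalized counts in WT libraries 1, 2 and 3 and at 1993, 993 and 1170 in the libraries labelled KO. These groups overlap, the log2 fold change (KO minus WT) was 0.20 with a 95% interval from -0.26 to 0.66, and the deleted part of the gene is not given in the sources used here. The 6 B cell marker genes summed to 52394 to 53539 normalized counts in WT and 46759 to 54103 in KO. The log2 ratios of this sum (KO to WT) were -0.19, -0.15 and 0.05 in pairs 1, 2 and 3. *Cd79a* (log2 fold change -0.21) and *Cd74* (-0.18) were lower in KO in all 3 pairs, as were 13.1% of all genes tested. Of the 6 markers, 4 had negative and 2 positive fold changes, and 0 passed an adjusted p of 0.05 in limma. The 6 T cell markers summed to 6.27 to 48.2, 4 NK cell markers to 14.3 to 25.4, 7 myeloid markers to 18.1 to 129 and 4 erythroid markers to 0 to 0.953. *S100a8*, *S100a9*, *Hba-a1* and *Hbb-bs* were at 0 in all 6 libraries. Markers of plasma cells and plasmablasts varied more, and their sum (6 genes, *Jchain*, *Xbp1* and *Irf4* with the most counts, *Tnfrsf17* at 0 to 1.89) was 10895, 7906 and 18378 in WT libraries 1 to 3 and 15767, 8049 and 10613 in KO libraries 1 to 3. In bulk RNA, a change in the share of such cells and a change in RNA per cell cannot be told apart.

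Members of the family share the BH3 core, a stretch of 6 codons that encodes part of the BH3 helix. Here it was taken to run from a leucine codon to an aspartate codon, with a glycine, alanine or serine codon just before the aspartate codon. It was searched for in the principal coding sequence of the members other than *Pmaip1*, 9 in all, in Gencode vM21 (GRCm38), and each of the 9 held 1 match, while 34.3% of 20082 protein-coding genes hold the same pattern somewhere, so a match by itself does not mark the family. The core is shown for the 3 anti-apoptotic members, 2 BH3-only members and an effector, so that the stretches of the classes can be compared. Each line holds 30 bases of the coding strand, 5′ to 3′, with the 18 bases of the core in capitals.
Bcl2: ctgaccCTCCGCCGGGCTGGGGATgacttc
Bcl2l1: caagcgCTGAGAGAGGCAGGCGATgagttt
Mcl1: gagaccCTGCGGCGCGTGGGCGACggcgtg
Bcl2l11: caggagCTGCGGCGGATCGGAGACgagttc
Bbc3: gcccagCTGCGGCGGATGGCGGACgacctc
Bax: gagtgtCTCCGGCGAATTGGAGATgaactg
These stretches lie at chr1:106712578-106712607 on the minus strand, in exon 1 of 2 (*Bcl2*), chr2:152829700-152829729 on the minus strand, in exon 2 of 3 (*Bcl2l1*), chr3:95659430-95659459 on the plus strand, in exon 1 of 3 (*Mcl1*), chr2:128147144-128147173 on the plus strand, in exon 3 of 4 (*Bcl2l11*), chr7:16313767-16313796 on the plus strand, in exon 3 of 4 (*Bbc3*), and chr7:45466000-45466029 on the minus strand, in exon 3 of 6 (*Bax*). All lie in coding exons. The fragments were counted over all exons of a gene, so the counts that follow do not separate splice forms, such as the long and short forms of *Bcl2l1* or *Bcl2l11*.

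The order of the members by level is given per length, as normalized counts per kilobase of exon. *Mcl1* stood far above the rest of the family at 1416 ± 52.3 normalized counts per kilobase (SD, n = 6 libraries), place 295 among 12315 tested genes with a length. Its lowest library (1350) lay above the highest library of every other member, and its mean was 4.06 times that of *Bax*, the next in order. The 10 members together made up 0.130% to 0.139% of the fragments of a library.

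*Bax*, the effector that moves from cytosol to mitochondria, came next with 349 ± 19.6 per kilobase (SD, n = 6). It was 2.18 times the following gene, and its range of 331 to 382 did not meet that of any other member. *Bid* (160 ± 37.2), *Pmaip1* (150 ± 29.3), *Bbc3* (145 ± 20.1) and *Bak1* (139 ± 12.4) followed as a group whose neighbours overlapped between libraries, so their order is not set by these data. *Bak1* was above *Bcl2l11* in 6 of 6 libraries. A lower group held *Bcl2l11* at 71.7 ± 12.1 and *Bcl2* at 70.9 ± 10.1, which overlapped each other. *Bad* (39.0 ± 1.92) and *Bcl2l1* (38.6 ± 8.74) were last, overlapped each other and lay just below the median of the tested genes, 45.0 per kilobase. The lower places depend on the length used. With the longest transcript in place of all exons, *Bad* had 65.1 and *Bcl2l1* 68.9 per kilobase, above the median of 60.9 on that length, and the ranges of *Bcl2l1* and *Bcl2* overlapped, as did those of *Bcl2l11* and *Bak1*.

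**Figure D1:**
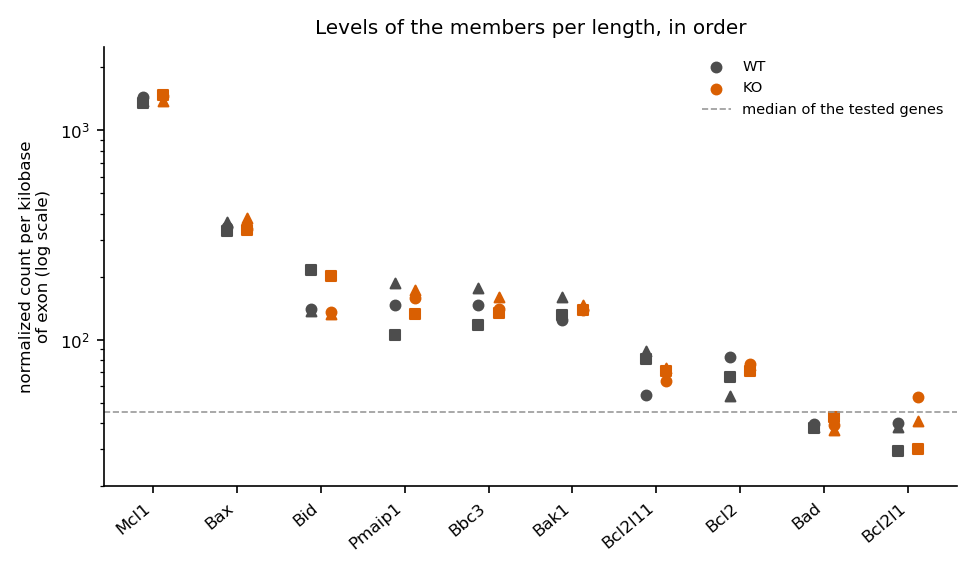
Normalized counts per kilobase of exon (log scale) for the 10 members in order of their mean over 6 libraries. Grey points are WT and orange points KO libraries, with circles, squares and triangles for pairs 1, 2 and 3, and the dashed line is the median of the tested genes (45.0). *Mcl1* lies between 1350 and 1472 in every library, and *Bad* and *Bcl2l1* scatter around or below the dashed line.

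No member passed the test between KO and WT libraries. With limma on log2(normalized count + 1), 0 of the 10 members passed an adjusted p of 0.05 and 0 had an unadjusted p under 0.05, beside 0% and 4.70% (579) of all 12322 genes tested. DESeq2 called 0 members and 0.232% of 9894 genes (23), edgeR called 0 members and 0 genes, and 0 members had an unadjusted p under 0.05 in either tool, beside 4.61% of the genes in edgeR and 2.06% in DESeq2. The lowest adjusted p of a member was 0.970 in limma, 0.982 in edgeR and 1.00 in DESeq2. The normalized counts of KO and WT overlapped for 10 of 10 members, while 6.83% of all genes tested had groups that did not overlap.

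The intervals bound how large a difference could have been. For all 10 members the 95% interval of the log2 fold change lay within -0.5 and 0.5 (a fold of 1.41 either way), a limit chosen after the values were seen, which 62.1% of the tested genes also met. The lowest bound was 0.792-fold and the highest 1.38-fold. The median log2 fold change of the members was 0.03, with 7 positive and 3 negative values. All genes tested had a median of 0.00067, with 6187 positive and 6135 negative values. These intervals are per gene and are not adjusted for the number of genes. They use variances that limma draws toward those of other genes of similar level, not the spread of a member's 3 pairs alone. The SD of the pair ratios was widest for *Bcl2* (0.31) and *Bcl2l11* (0.27) and narrowest for *Bid* (0.03). Intervals from the pairs alone were not computed, and they need not lie within the same limit.

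**Figure D2:**
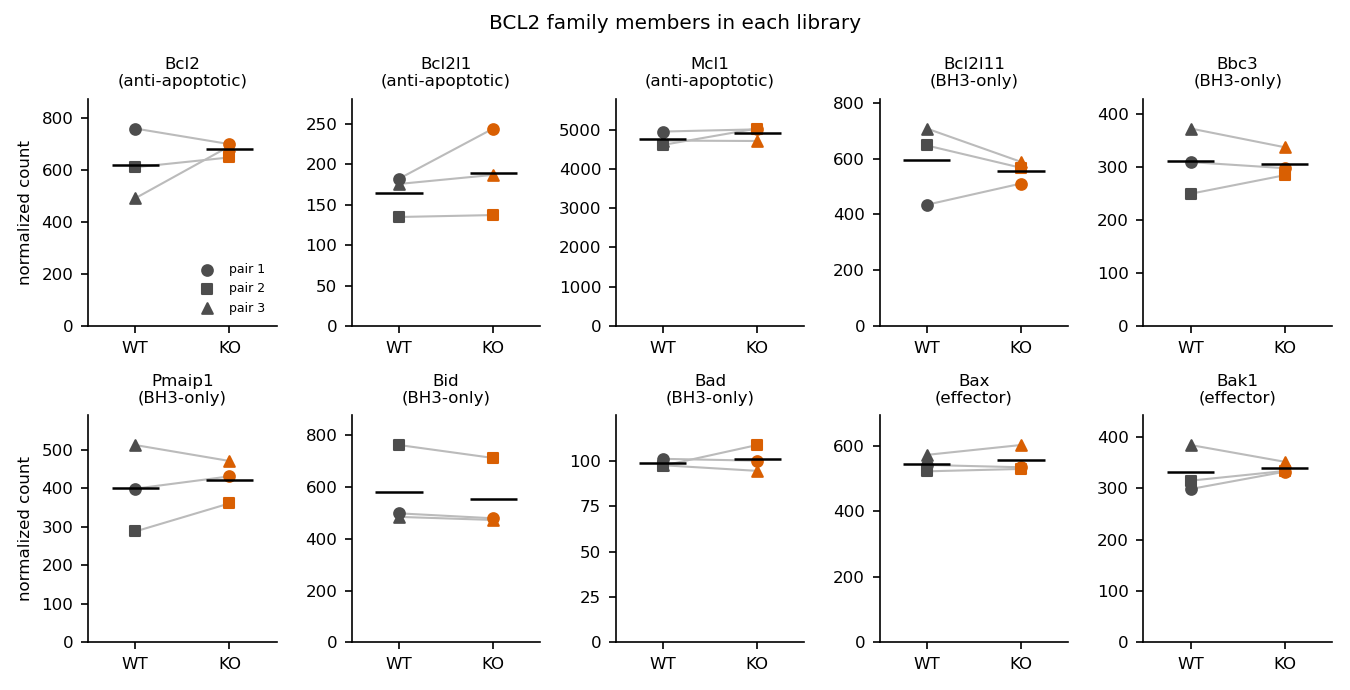
Normalized count of each member in the 3 WT (grey) and 3 KO (orange) libraries, on axes that start at 0. Lines join the libraries of a pair, symbols mark pairs 1, 2 and 3, and black bars are group means. Groups overlap in all 10 panels, and *Bid*, *Pmaip1* and *Bcl2l1* differ more between pairs than within them.

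Among the anti-apoptotic members, all 3 fold changes were above 0 and 0 passed the test. *Bcl2*, the founding member of the family, had 758, 610 and 490 normalized counts in WT libraries 1, 2 and 3 and 698, 647 and 690 in KO libraries 1, 2 and 3. The WT libraries spread around the KO ones, with WT library 1 the highest and WT library 3 the lowest of the 6. The pair ratios (log2 of KO over WT) were -0.12, 0.09 and 0.49, and the fitted log2 fold change was 0.15 ± 0.12 (SE, n = 3 pairs; 95% interval -0.13 to 0.44; limma adjusted p = 0.970). Without pair 3 it was -0.02.

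*Bcl2l1*, which encodes the BCL-XL survival protein, had 182, 135 and 176 normalized counts in WT libraries 1 to 3 and 244, 137 and 187 in the KO libraries. It was the only member higher in KO in all 3 pairs, against 11.7% of the tested genes that were higher in all 3. The ratios were uneven, 0.42 in pair 1 but 0.03 and 0.09 in pairs 2 and 3. Its log2 fold change of 0.18 ± 0.12 (SE; 95% interval -0.11 to 0.46; limma adjusted p = 0.970) was the largest of the 10 in this fit, and without pair 1 it was 0.06.

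*Mcl1*, which encodes the short-lived member needed by activated B cells, had the narrowest range of pair means of the 10. It had 4954, 4613 and 4725 normalized counts in WT and 5011, 5032 and 4713 in KO. All 6 libraries lay between 4613 and 5032, and pair 2 had the largest ratio (0.13). The log2 fold change was 0.05 ± 0.06 (SE; 95% interval -0.10 to 0.19), which bounds a difference of the *Mcl1* transcript at 0.933-fold to 1.14-fold.

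The 5 BH3-only members had fold changes on both sides of 0, 2 positive and 3 negative, with a median of -0.00306. *Bcl2l11*, whose product BIM binds all anti-apoptotic members, had 434, 647 and 708 normalized counts in WT and 511, 567 and 588 in KO. As with *Bcl2*, the KO libraries lay inside the WT range. Pair 1 was higher in KO (0.23) and pairs 2 and 3 lower (-0.19 and -0.27), for a log2 fold change of -0.07 (95% interval -0.34 to 0.19).

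*Bbc3*, a p53 target, had 310, 250 and 373 normalized counts in WT and 298, 285 and 338 in KO, a log2 fold change of -0.00306 (95% interval -0.23 to 0.23). *Pmaip1*, another p53 target whose product NOXA binds chiefly MCL1, had 399, 288 and 512 in WT and 430, 360 and 470 in KO. Its ratios were 0.11, 0.32 and -0.12, and its log2 fold change 0.10 (95% interval -0.14 to 0.35). In both genes the pair mean was lowest in pair 2 and highest in pair 3.

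*Bid*, the member cleaved by caspase-8 to link death receptors to mitochondria, had 498, 761 and 484 normalized counts in WT and 478, 711 and 472 in KO. KO lay below WT in all 3 pairs, as in 13.1% of the tested genes, with small ratios of -0.06, -0.10 and -0.04. The log2 fold change was -0.06 ± 0.07 (SE; 95% interval -0.23 to 0.10; limma adjusted p = 0.970). *Bad*, whose product is inactivated by survival kinases, was low and even at 101, 97.2 and 97.5 in WT and 100, 109 and 94.4 in KO, with a log2 fold change of 0.03 (95% interval -0.27 to 0.34).

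Both effectors were nearly level. *Bax* had 541, 522 and 572 normalized counts in WT and 534, 529 and 602 in KO, a log2 fold change of 0.03 ± 0.07 (SE; 95% interval -0.14 to 0.19). It shares exon bases with the annotated gene *Gm45808* on the same strand, and fragments on shared bases may be missing from its count. *Bak1*, which resides in the outer membrane, had 298, 315 and 384 in WT and 332, 334 and 351 in KO, with the KO libraries inside the WT range and a log2 fold change of 0.04 (95% interval -0.18 to 0.25).

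**Figure D3:**
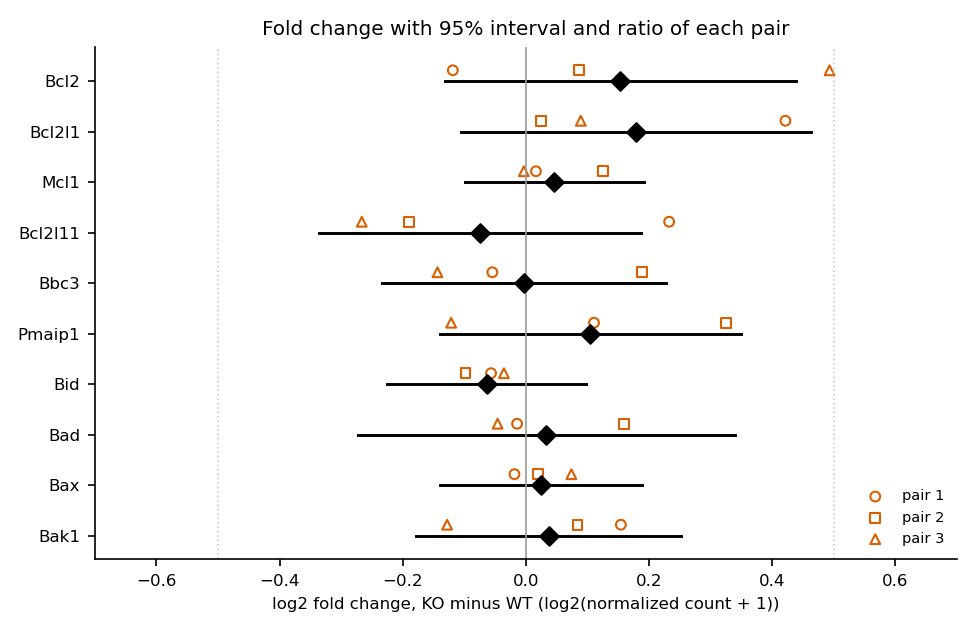
Log2 fold change (KO minus WT, log2(normalized count + 1)) of each member as fitted by limma (diamonds) with its 95% interval (lines), and the log2 ratio of each pair (open symbols). Every interval includes 0 and lies within -0.5 and 0.5 (dotted lines), and the widest scatter of pair ratios is that of *Bcl2*, from -0.12 to 0.49.

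The range of the pair means was wider than the size of the fold change in 10 of 10 members, as it was in 82.0% of all genes tested. These are unlike measures, a range of 3 means and a mean difference. The median of the range over the members was 0.37 on the log2 scale, beside 0.23 for all genes tested. It was widest for *Bcl2l1* (0.63), *Bid* (0.62) and *Pmaip1* (0.61) and narrowest for *Mcl1* (0.08). In pair 2, *Bid* and *Bad* were at their highest and *Bcl2l1*, *Pmaip1*, *Bbc3* and *Bax* at their lowest pair mean. The summed plasma cell markers were also lowest in both libraries of pair 2 (7906 and 8049), and their part in the levels of these members was not tested. Within pairs, the marker sum was higher in KO in pair 1 (log2 ratio 0.53), level in pair 2 (0.03) and lower in KO in pair 3 (-0.79), and its part in the pair ratios of the members was likewise not tested.

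The balance between members was compared within each library for 5 ratios, on log2(normalized count + 1). *Bcl2l1* to *Bcl2* was -2.05, -2.17 and -1.47 in WT libraries 1 to 3 and -1.51, -2.23 and -1.88 in KO libraries 1 to 3, and the mean difference over pairs was 0.02 ± 0.48 (SD). *Mcl1* to *Bcl2* averaged 2.96 ± 0.28 in WT and 2.86 ± 0.09 in KO, and *Bax* to *Bcl2* -0.16 ± 0.36 in WT and -0.29 ± 0.09 in KO, so that each of these ratios spread less among the KO libraries. The mean differences over pairs were -0.11 ± 0.34 and -0.13 ± 0.27. For the BH3-only genes against *Mcl1*, the difference was -0.12 ± 0.29 for *Bcl2l11* and 0.06 ± 0.16 for *Pmaip1*. The exact two-sided sign-flip test over 3 pairs gave p between 0.5 and 1.0 for the 5 ratios and an adjusted p of 1.0 for each, where 0.25 is the smallest p that 3 pairs can give. *Bcl2* enters 3 of the ratios and *Mcl1* 3, so they are not independent. The sign of 4 of these 5 differences turned when 1 pair was left out (all but *Bcl2l11* to *Mcl1*).

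Other genes of the pathway were read from 5 lists of 52 genes in all, of which 44 had enough counts to test. Of these 44, limma, edgeR and DESeq2 each called 0 at an adjusted p of 0.05 and 0 had an unadjusted p under 0.05. The 44 genes had 27 positive and 17 negative fold changes, beside 6187 positive and 6135 negative over all genes tested. Their median was 0.03, and 0.0052 without pair 2. In all 3 pairs, 10 of the 44 were higher in KO (22.7%, beside 11.7% of all genes tested) and 5 lower (11.4%, beside 13.1%). The groups did not overlap in 5 (11.4%, beside 6.83%). The log2 fold changes ranged from -0.31 to 0.28. Some genes below, such as *Bcl2l13*, *Fadd* and *Fbxw7*, were named for a small unadjusted p within their list. Their even pairs or separate groups are therefore a description.

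Of 15 other BCL2 family genes, 10 were tested, and the median log2 fold change was 0.08. *Bok* and *Hrk*, a further effector and a BH3-only gene of neurons, were at 0 in all 6 libraries, which allows up to 2.72 to 3.61 normalized counts (3 fragments) per library and covers counting error only. *Bcl2a1b* (log2 fold change 0.02) and *Bcl2a1d* (0.06) encode A1, a survival protein induced in activated lymphocytes, and their near-identical copies make the counts of each uncertain. *Bnip3l*, a mitophagy receptor, stood at 0.10 (95% interval -0.08 to 0.27). *Bcl2l13*, another mitophagy receptor, had 334, 340 and 340 normalized counts in WT and 357, 396 and 373 in KO, groups that did not overlap, with a log2 fold change of 0.15 (95% interval -0.04 to 0.34; limma adjusted p = 0.970).

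Downstream of the mitochondria, all 15 genes of the apoptosome, caspases and inhibitors of apoptosis were tested, with a median of 0.02. *Apaf1*, the scaffold of the apoptosome, had 440, 418 and 444 normalized counts in WT and 478, 459 and 490 in KO (log2 fold change 0.13, 95% interval -0.04 to 0.30). It was higher in every KO library than in any WT library, and it was named for its small unadjusted p within its list, so that pattern is a description. *Birc3*, an inhibitor of apoptosis protein, was a little lower in KO in all 3 pairs (-0.07, 95% interval -0.20 to 0.07), while the related *Birc2* stood at 0.12 and the BAK1 partner *Vdac2* at 0.02.

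The death receptor genes had a median of 0.05 over 6 tested. *Fas* (log2 fold change -0.00238), *Cflar* (-0.06), the inhibitor of caspase-8 activation, and *Ripk1* (0.04), which shares exon bases with another gene, all overlapped between groups. *Fadd*, the adaptor of the death receptors, had 41.6, 46.0 and 44.5 normalized counts in WT and 51.0, 50.5 and 52.7 in KO, groups that did not overlap (0.22, 95% interval -0.20 to 0.64). *Tnfrsf10b*, a TRAIL receptor, stood at 0.12.

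Of 10 transcription regulators of the members, 8 were tested, with a median of -0.01. *Ddit3* (CHOP), which raises *Bcl2l11* and *Bbc3* under endoplasmic reticulum stress, had 204, 120 and 214 normalized counts in WT and 178, 116 and 159 in KO. It was lower in KO in all 3 pairs, with ratios of -0.19, -0.05 and -0.43, but the groups overlapped and the log2 fold change of -0.22 (95% interval -0.50 to 0.06) did not pass the test (limma adjusted p = 0.970). *Atf4*, which acts upstream of it, was also lower in all 3 pairs (-0.09, 95% interval -0.24 to 0.05), while *Mdm2* (-0.03) and *Myc* (0.01) lay near 0. Both *Ddit3* and *Atf4* were named for a small unadjusted p within this list, so their shared direction is a description. *Ddit3* has 2 overlapping identifiers in the annotation, and the value is that of the protein-coding one.

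Among 6 genes that regulate the MCL1 protein, 5 were tested, with a median of 0.03. The ubiquitin ligases *Huwe1* (log2 fold change 0.03) and *Fbxw7* (-0.04), which mark MCL1 for degradation, and the kinase *Pim1* (0.11, 95% interval -0.07 to 0.30) overlapped between groups. For *Fbxw7*, KO lay below WT in each pair, with ratios of -0.03, -0.03 and -0.07.

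**Figure D4:**
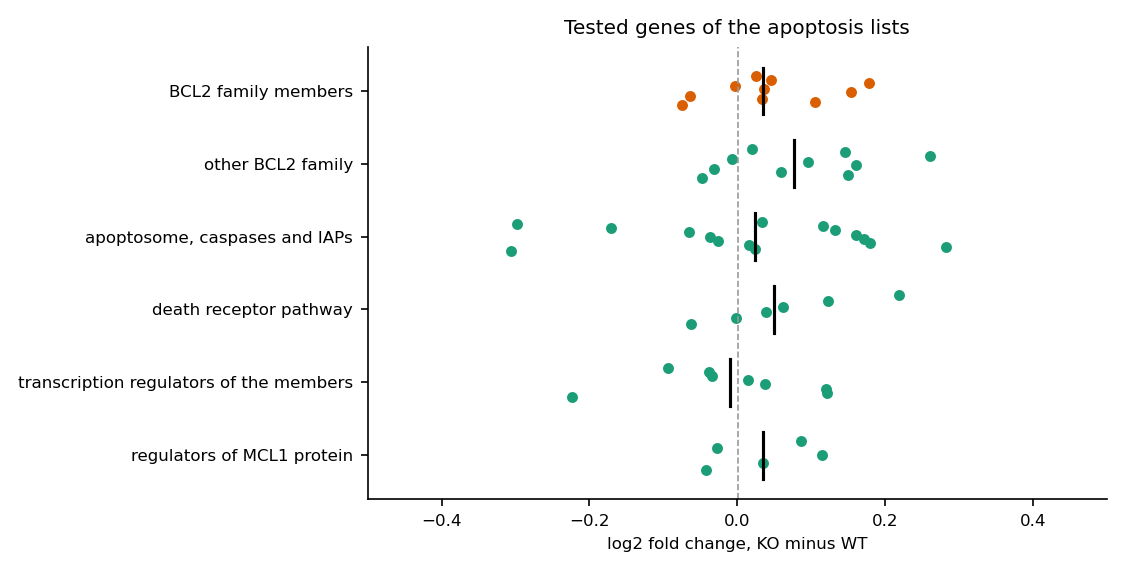
Log2 fold change (KO minus WT) of the tested genes in the BCL2 family members and 5 lists of other apoptosis genes. Each point is a gene, spread vertically within its list for legibility, black bars are list medians and the dashed line is the median of all genes tested. List medians lie between -0.01 and 0.08, and the widest spread is in the apoptosome, caspases and IAPs (inhibitors of apoptosis), from -0.31 to 0.28.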

How the data were processed

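Genotype and replicate number were taken from the labels. Replicates are littermates according to the study's methods, and libraries of a pair deviated together from their group means (correlation across genes 0.328 in pair 1, 0.685 in pair 2, 0.170 in pair 3), so the pair was kept in the model.

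Ribosomal RNA was depleted and strand-specific libraries were made with a dUTP protocol. The authors trimmed the reads with cutadapt, aligned them with STAR (2.6.1a) to GRCm38, counted fragments on exons with featureCounts of Subread (1.6.3) and the Gencode vM19 annotation, and scaled them with the size factors of DESeq2. The resulting normalized counts, a signal that keeps the scale of counts, were deposited by the authors. A change shared by most transcripts is removed by this scaling, and fragments that map to several places were dropped, which affects paralogs.

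All values (100% within a tolerance of 0.01) were whole multiples of what 1 fragment is worth in that library, and the fragments were recovered from them. Gencode vM21 gave names and lengths (54409 of 54446 identifiers). limma (3.58.1, R 4.3.3; eBayes with a trend) was run two-sided on log2(normalized count + 1) over 12322 genes (mean of 10 or more), with terms for condition and pair, and p was adjusted by Benjamini-Hochberg over all of them (threshold 0.05). The recovered fragments were also tested with edgeR 4.0.16 and DESeq2 1.42.0. The scripts were tested on simulated data. No libraries were duplicates (chi-square per gene 4.44 to 22.0 over 15 pairs of libraries). By this measure the KO and WT libraries were close in pair 1 (5.62) and pair 2 (4.44). In pair 3 they were not (16.2), and KO library 3 was nearer to WT library 1 (10.7).

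The members and lists were chosen with earlier results of these data known. All members are named, as are the 3 genes of each list with the highest mean and the 2 with the smallest unadjusted p in limma. Some genes that the rule or lists hold are not reported here. Levels per length used the union of exons. Alternatives were other pseudocounts, filters, scalings, tools, fits without the pair, and leaving out each pair.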

Additional observations from a re-analysis of the deposited data

How the results depend on the processing

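Over 14 alternatives, 0 of the 10 members and 0 of the other apoptosis genes were called, and 132 of 140 values of single members kept their sign. The filters and the limma fit without the pair leave a member's fold change unchanged by construction, so its sign could not turn there. All turns came from quantile normalization or from leaving out a pair. The lowest adjusted p of a member was 0.643 and the largest size of a log2 fold change 0.29. Over all genes, DESeq2 with the replicate block called 22 genes lower and 1 higher in KO. Leaving out each pair in turn gave 0 to 168 genes lower and 0 to 3 higher in KO, with 168 and 3 without pair 1. Without the replicate block, which ignores the pairing of littermates, limma called 0 members and 0 genes. The median of the members stays at 0.03 by construction, since each pair holds 1 KO and 1 WT library, so it is no check. Leaving out a pair moved that median from 0.00053 (without pair 2) to 0.069 (without pair 3). It moved the median of the other apoptosis genes from 0.0052 (without pair 2) to 0.044 (without pair 3). The sign of 6 members changed: *Bbc3* was 0.010 under quantile normalization, and leaving out a pair moved *Bcl2* from -0.016 to 0.29, *Bcl2l11* from -0.23 to 0.021, *Bbc3* from -0.10 to 0.067, *Pmaip1* from -0.0054 to 0.22, *Bad* from -0.030 to 0.072 and *Bak1* from -0.022 to 0.12. The sign turned without pair 3 for *Bcl2* and *Bcl2l11*, without pair 1 or pair 3 for *Bbc3*, without pair 2 for *Pmaip1* and *Bad*, and without pair 1 for *Bak1*. Of the within-library ratios, it moved *Bcl2l1* to *Bcl2* from -0.23 to 0.24, *Mcl1* to *Bcl2* from -0.23 to 0.087, *Bax* to *Bcl2* from -0.24 to 0.017 and *Pmaip1* to *Mcl1* from -0.012 to 0.15, with turns without pair 1, pair 3, pair 3 and pair 2 in that order, and *Bcl2l11* to *Mcl1*, which kept its sign, from -0.29 (without pair 1) to -0.023 (without pair 2). Each of these values rests on 2 pairs, and the cause of the changes was not tested. With the longest transcript as length in place of all exons, *Mcl1* was 2.83 times the next member, and *Pmaip1* and *Bbc3*, like *Bad* and *Bcl2l1*, changed places. With 3 pairs, precision is limited to the printed intervals. The limma p-values and SEs rest on the spread between littermate pairs after it is drawn toward that of other genes of similar level. For *Bid*, the SE was 0.07 while the SD of its pair ratios was 0.03.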

Other observations

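*Bcl2a1a* and *Bcl2a1d*, near-identical genes for the A1 survival protein, varied more between libraries than the 10 members did, a pattern noticed after the values were seen. *Bcl2a1a* had 434, 217 and 462 normalized counts in WT libraries 1, 2 and 3 and 394, 436 and 231 in KO libraries 1, 2 and 3. *Bcl2a1d* had 367, 600 and 299 in WT and 270, 383 and 719 in KO, so that WT library 2 and KO library 3 were the lowest for *Bcl2a1a* and the highest for *Bcl2a1d*. The sum of *Bcl2a1a*, *Bcl2a1b* and *Bcl2a1d* was steadier, at 1299, 1278 and 1259 in WT and 1091, 1315 and 1510 in KO. Counts of such near-identical genes are uncertain, since a fragment with more than 1 mapping place was not counted.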
